A study of Bos taurus with 30 samples.

Results

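The arcuate nucleus (ARC) of the hypothalamus holds the neurons that make proopiomelanocortin (POMC), the precursor of peptides that curb feeding through melanocortin receptors. Leptin, a hormone of adipose tissue, acts on these neurons to signal body energy stores. A miRNA pairs through its seed with sites in mRNAs, mostly in the UTR after the coding sequence, and lowers the protein made from them. In work on leptin-deficient mice, miR-383, miR-384 and miR-488 were linked to leptin and to the Pomc mRNA as predicted regulators of it, and these 3 miRNAs are the subject here.

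Members were chosen by name, as any row of the table of mature miRNAs with the stem miR-383, miR-384 or miR-488. This gave 2 members, bta-miR-383 and bta-miR-488, among the 863 of 1030 rows that held any read, and both passed the filter on low values that left 476 miRNAs for testing. For miR-384 the rule found 0 rows, and this miRNA was not analysed here. Each member had 1 row, so arms of the same precursor could not be compared. Mature sequences were not used here.

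Small RNA libraries came from the ARC of 30 Holstein-Friesian bull calves, with 1 library per calf. From 2 weeks of age, 15 calves on the high plane of nutrition (HI) received 1.5 kg of milk replacer in 10 litres per day and concentrates ad libitum, and 15 on the moderate plane (MOD) received 0.5 kg in 4 litres and 0.5 kg of concentrates. Tissue was taken from both groups at 12 weeks of age. The comparison of diets asks whether the plane of nutrition in early life changes miRNA levels in the region that reads metabolic state.

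Values are counts per 1000000 reads over scaled library sizes (CPM), as the authors deposited them. The values of a library sum to between 825695 and 1429908, so the scaling differs between calves. Between 6291376 and 21083250 reads per library were counted on miRNAs, with 21 shallower libraries (12 HI, 9 MOD) of at most 8988039 reads and 9 deeper ones (3 HI, 6 MOD) of at least 17193358. The median was 6356 CPM for miR-124a, a defining miRNA of neurons, and 44294 CPM for miR-9-5p, which also acts in neural progenitors. Of 4 muscle miRNAs, miR-206 was listed at 0 in all 30 libraries and miR-1 in 19, while miR-133a and miR-133b were above 0 in every library, with medians of 51.2 and 9.10 CPM. A list of 10 miRNAs of pituitary and other endocrine or epithelial tissue set 9 libraries apart (5 HI, 4 MOD). The summed level of that list was 10003 to 100739 CPM in these 9 and 2289 to 7130 CPM in the other 21. The diet test and the relations of the members to other miRNAs are therefore also given without these 9 calves, a choice made after seeing the data. In bulk tissue, fewer cells of a type and less of a miRNA per cell cannot be told apart.

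In RefSeq, on the ARS-UCD2.0 assembly, the precursor of miR-488 is MIR488 (gene identifier 100313055), of 96 bases, and lies within ASTN1, which encodes astrotactin, a neuronal adhesion protein of glia-guided migration. The precursor of miR-383 is MIR383 (gene identifier 100313312), of 73 bases. It lies within no listed protein-coding gene, and its neighbours are LOC515227 and SGCZ, which encodes zeta-sarcoglycan. Coordinates are left out because the reads were aligned to the earlier ARS-UCD1.2 assembly.

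By median CPM over the 30 calves, miR-488 ranked 163rd and miR-383 ranked 199th of the 863 miRNAs with a read. Their medians were 169.0 CPM for miR-488 and 102.7 CPM for miR-383. The mature miRNAs of these precursors took a median of 0.0172% and 0.0106% of the miRNA reads of a library. CPM are not divided by length, and reads of different miRNAs also depend on how each is captured in the library, so the order is one of reads. In 27 of 30 calves miR-488 was the higher of the pair, with a median ratio of 1.57 and a range of 0.683 to 2.71. The calves with miR-383 above miR-488 were 2 HI and 1 MOD, namely A37824, A37840 and A41971.

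The level of miR-383, a miRNA also studied in testis and ovary, overlapped between the diets over most of its range. In the HI calves the lowest was 84.8 CPM (A27823), the median 103.2 CPM and the highest 182.9 CPM (A37840). In the MOD calves the lowest was 69.1 CPM (A47825), the median 99.2 CPM and the highest 131.0 CPM (A61965). Calf A37840 stood alone at the top, since the next HI calf had 122.9 CPM. That value rested on 1330 reads, from the shallowest of the 30 libraries. Across 15 calves per diet, miR-383 averaged 107.5 ± 23.3 CPM (SD) on HI and 102.3 ± 19.5 CPM (SD) on MOD.

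The level of miR-488, a miRNA of the nervous system, had a higher median in HI, but the ranges of the diets nearly coincided. In HI the lowest was 70.4 CPM (A37824), the median 180.1 CPM and the highest 211.2 CPM (A27848). In MOD the lowest was 64.8 CPM (A41971), the median 166.5 CPM and the highest 207.1 CPM (A97821). The low end in each diet was a single calf, and the next lowest stood at 117.2 CPM in HI and 132.5 CPM in MOD. Across 15 calves per diet, miR-488 averaged 163.3 ± 39.4 CPM (SD) on HI and 160.5 ± 35.2 CPM (SD) on MOD.

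**Figure D1:**
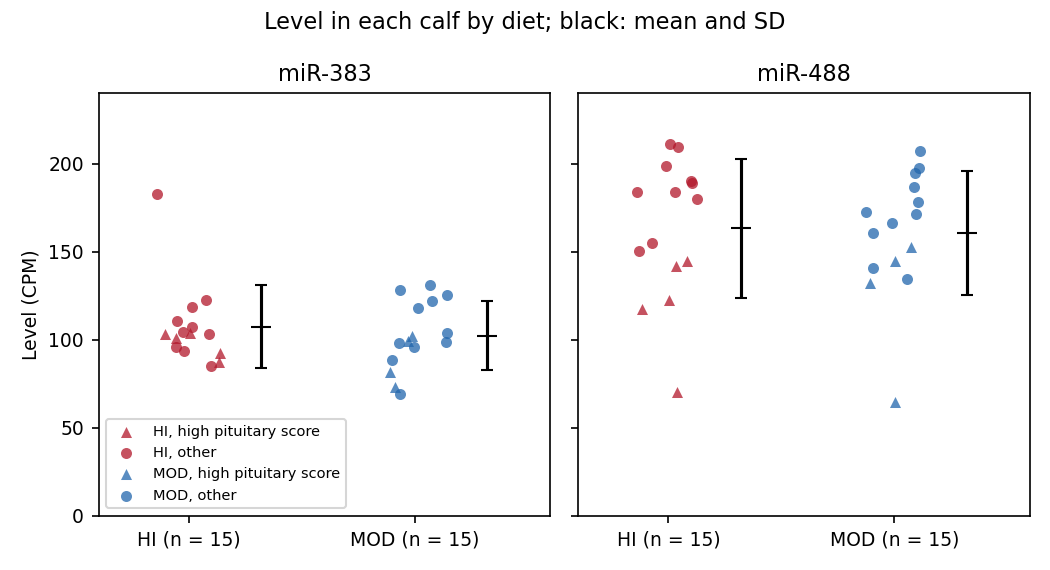
Level of miR-383 (left) and miR-488 (right) in CPM, 1 point per calf, by diet; triangles mark the 9 calves with a high pituitary list score, and black marks give the mean and SD (n = 15 per diet). The diets overlap for both members, miR-383 has 1 high HI calf at 182.9 CPM, and miR-488 has 1 low calf in each diet, at 70.4 and 64.8 CPM.

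Neither member differed between the diets beyond the spread of the calves. The test was limma on log2(CPM + 0.25) over the 476 tested miRNAs, with Benjamini-Hochberg adjustment and the thresholds of the study, which are 0.1 for the adjusted p and 1.5 for the fold change in either direction. Fold changes are on this scale, HI against MOD. For miR-383 the log2 fold change was 0.07 (SE 0.10, adjusted p = 0.982 from limma), a fold change of 1.05 with a 95% interval of 0.911 to 1.21. Of the 15 HI calves, 10 lay above the MOD median, and 6 of 15 MOD calves lay above the HI median. For miR-488 the log2 fold change was 0.02 (SE 0.15, adjusted p = 0.985 from limma), a fold change of 1.01 with a 95% interval of 0.824 to 1.25. Of the 15 HI calves, 8 lay above the MOD median, and 4 of 15 MOD calves lay above the HI median.

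Both intervals lay inside a 1.5-fold change in either direction, and both include smaller differences of either sign. Two-sided permutation tests of the mean log2 difference gave p = 0.486 for miR-383 and p = 0.889 for miR-488. Over all miRNAs 0 of 476 (0%) passed the thresholds in limma, and 21 of 476 (4.41%) had an unadjusted p under 0.05. On recovered reads, edgeR's quasi-likelihood test gave 20 miRNAs with an unadjusted p under 0.05. In the order of unadjusted p-values from limma, miR-383 was 225th (p = 0.485) and miR-488 was 426th (p = 0.891). Across 15 calves per diet the log2 ratio of miR-488 to miR-383 averaged 0.58 ± 0.48 (SD) on HI and 0.63 ± 0.42 (SD) on MOD, with a permutation p = 0.761.

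Within groups of libraries the diet difference stayed small against the spread. In the shallower libraries the mean log2 difference of HI minus MOD was -0.010 for miR-383 (exact permutation p = 0.910, n = 12 HI and 9 MOD). In the deeper ones it was 0.15 for miR-383 (exact permutation p = 0.571, n = 3 HI and 6 MOD). For miR-488 these differences were 0.02 (exact permutation p = 0.915) and 0.13 (exact permutation p = 0.429). The 9 calves with the lowest animal codes, 7 HI and 2 MOD, form a class that was noticed in these values. In that class the difference was -0.03 for miR-383 (exact permutation p = 0.833) and -0.11 for miR-488 (exact permutation p = 0.889), and the smallest p it allows is 0.0556. Among the other 21 calves it was 0.16 for miR-383 (exact permutation p = 0.269, n = 8 HI and 13 MOD) and 0.12 for miR-488 (exact permutation p = 0.536).

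**Figure D2:**
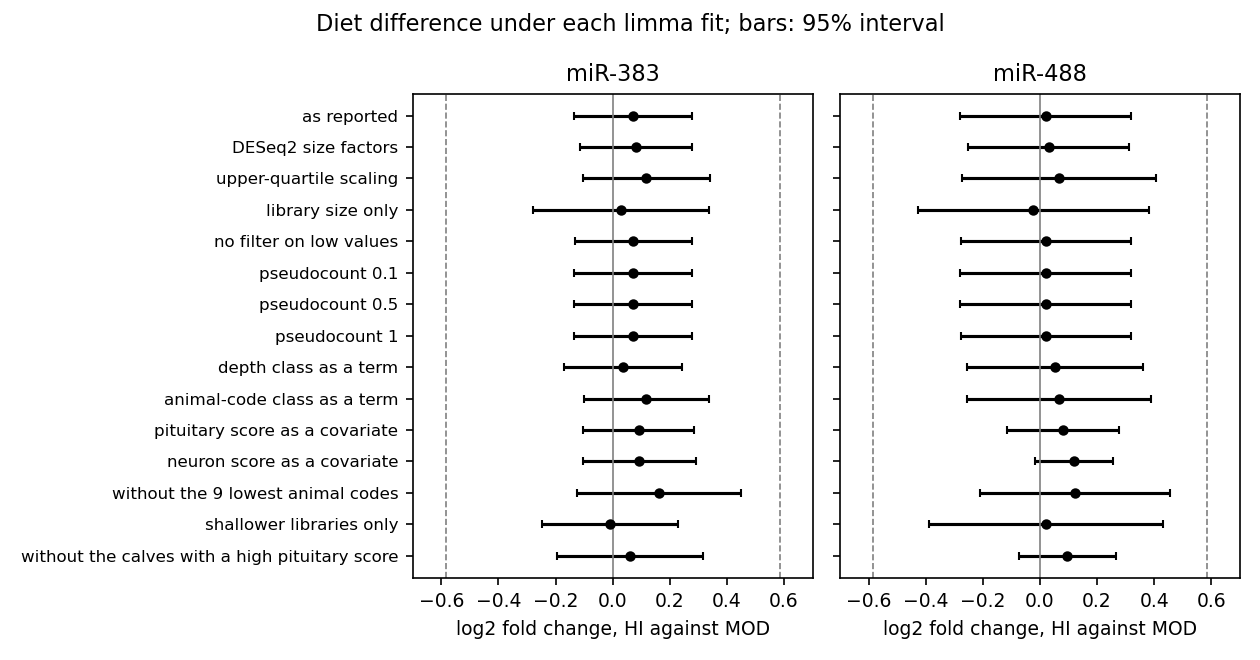
Log2 fold change of HI against MOD for miR-383 (left) and miR-488 (right) under each limma fit, with 95% intervals; the solid line is no difference and the dashed lines are a 1.5-fold change. Each interval includes 0 and lies inside the dashed lines, with outer bounds of -0.28 and 0.45 for miR-383 and -0.43 and 0.45 for miR-488.

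The spread between calves holds library preparation and scaling as well as the calves themselves. Over 30 calves the coefficient of variation was 20.3% for miR-383 and 22.7% for miR-488, against 3.16% and 2.62% from counting alone at their 492 to 2419 and 379 to 4068 reads per library. On the log2 scale the SD of miR-383 was 0.27, larger than that of 118 of the 476 tested miRNAs. For miR-488 it was 0.40, larger than that of 285, and the median over tested miRNAs was 0.37. The calves with the lowest animal codes were close together for miR-383, from 84.8 to 107.2 CPM, while the others ran from 69.1 to 182.9 CPM. Neither member differed by depth class beyond the spread of the calves. The log2 difference of deeper against shallower libraries was -0.18 for miR-383 (adjusted p = 0.783 from limma with diet in the model) and 0.16 for miR-488 (adjusted p = 0.921 from limma). For this term 0 of 476 miRNAs (0%) had an adjusted p under 0.1. The class of the 9 lowest animal codes went with many miRNAs, since 136 of 476 (28.6%) had an adjusted p under 0.1 for it in limma with diet in the model. That class was noticed in these values and holds 7 HI and 2 MOD calves. All 9 were among the shallower libraries, so the terms for depth and animal code are not separate. No fit held both terms. The log2 difference of the 9 against the others was -0.14 for each member (adjusted p = 0.427 for miR-383 and 0.616 for miR-488 from limma).

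In the 9 libraries with a high pituitary list score, the level of miR-488 was lower. That of miR-383 stayed inside the range of the other calves, but all 9 lay below their median. In these, miR-488 ran from 64.8 to 152.8 CPM with a median of 132.5 CPM. In the other 21 it ran from 134.5 to 211.2 CPM with a median of 183.9 CPM. The ranges met only between 134.5 and 152.8 CPM. The mean log2 level of miR-488 was lower by 0.61 in the 9 libraries (high minus other -0.61), and 12.4% of the tested miRNAs had a lower difference. For miR-383 the 9 libraries ran from 73.2 to 103.9 CPM with a median of 99.2 CPM, inside the 69.1 to 182.9 CPM of the other 21, whose median was 104.7 CPM. Both ends of that wider range were single calves, as the next lowest had 84.8 CPM and the next highest 131.0 CPM. Its log2 difference of high minus other was -0.21, and 35.3% of the tested miRNAs had a lower one. For the neuronal miR-124a and miR-9-5p the difference was -1.23 and -0.82, and for the oligodendrocyte miR-338 it was -0.59. For miR-375 and miR-200a of the pituitary list, which set the libraries apart, it was 4.63 and 7.36. The median difference over all tested miRNAs was -0.04. With scaling by library size only, that median was -0.26, and the differences of miR-488 and miR-383 were -0.85 and -0.44. These differences are descriptions, with no test, as the libraries were set apart by other miRNAs measured in them. The part of pituitary tissue in the level of miR-488 was not tested.

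Within the 9 libraries, miR-488 ran against the pituitary list score, the mean log2 level of the list's 8 tested miRNAs. Pearson's r was -0.732 (exact permutation p = 0.00201, or 0.00992 after Benjamini-Hochberg adjustment over 8 relations, n = 9), and Spearman's rho was -0.833 (exact permutation p = 0.00827, 0.0431 after adjustment). Without the 2 calves farthest from the median score r was -0.762. It ran with the neuron list score, made of 8 miRNAs with miR-124a, miR-9-5p and miR-128 among them. For that score r was 0.916 (exact permutation p = 0.00248, 0.00992 after adjustment, n = 9) and rho was 0.817 (exact permutation p = 0.0108, 0.0431 after adjustment), and r was 0.871 without the 2 farthest calves. Rows of the neuron list for miR-124a and miR-124b hold identical values, so that miRNA enters the score with double weight. The lowest miR-488 levels belonged to calves A41971 and A37824, which had the highest pituitary list scores, 11.9 and 12.1.

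In the other 21 calves neither relation of miR-488 passed. For the pituitary score r was 0.058 (permutation p = 0.817, 0.870 after adjustment) and rho was 0.066 (permutation p = 0.773, 0.773 after adjustment), and r was 0.120 without the 2 farthest calves. For the neuron score r was 0.207 (permutation p = 0.363, 0.727 after adjustment) and rho was 0.348 (permutation p = 0.122, 0.325 after adjustment), and r was 0.349 without the 2 farthest. The difference between the 2 sets of calves was not tested.

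For miR-383 none of the 4 relations passed. In the 9 calves r was -0.380 with the pituitary score (exact permutation p = 0.310, 0.727 after adjustment) and -0.093 with the neuron score (exact permutation p = 0.870, 0.870 after adjustment). In the 21 calves r was 0.10 (permutation p = 0.661, 0.870 after adjustment) and 0.163 (permutation p = 0.481, 0.769 after adjustment). The rho values were -0.167, -0.183, 0.156 and 0.196 in the same order (adjusted permutation p = 0.773 for each). Without the 2 farthest calves r was -0.431, -0.126, 0.155 and -0.099. Scaling changed part of this. With library size only, the r of miR-383 with the neuron score in the 21 calves was 0.654 (permutation p = 0.00108, 0.00432 after adjustment), and that of miR-488 was 0.564 (permutation p = 0.00700, 0.0187 after adjustment). The rho values there were 0.674 (adjusted permutation p = 0.00400) and 0.435 (adjusted permutation p = 0.0665), and r was 0.506 and 0.425 without the 2 farthest calves. In the 9 calves the r of miR-383 was then 0.643 with the neuron score (exact permutation p = 0.0479, 0.0767 after adjustment), of the opposite sign to the value under the authors' scaling, and rho was 0.717 (exact permutation p = 0.0369, 0.0665 after adjustment). With the pituitary score there r was -0.607 (exact permutation p = 0.0974, 0.130 after adjustment) and rho was -0.70 (exact permutation p = 0.0433, 0.0665 after adjustment). Without the 2 farthest calves these r were 0.556 and -0.970. The r of miR-488 in the 9 calves was 0.957 with the neuron score (adjusted exact permutation p = 0.000220) and -0.664 with the pituitary score (adjusted exact permutation p = 0.0484). The rho values were 0.967 (adjusted exact permutation p = 0.00132) and -0.817 (adjusted exact permutation p = 0.0287), and r was 0.931 and -0.826 without the 2 farthest calves.

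**Figure D3:**
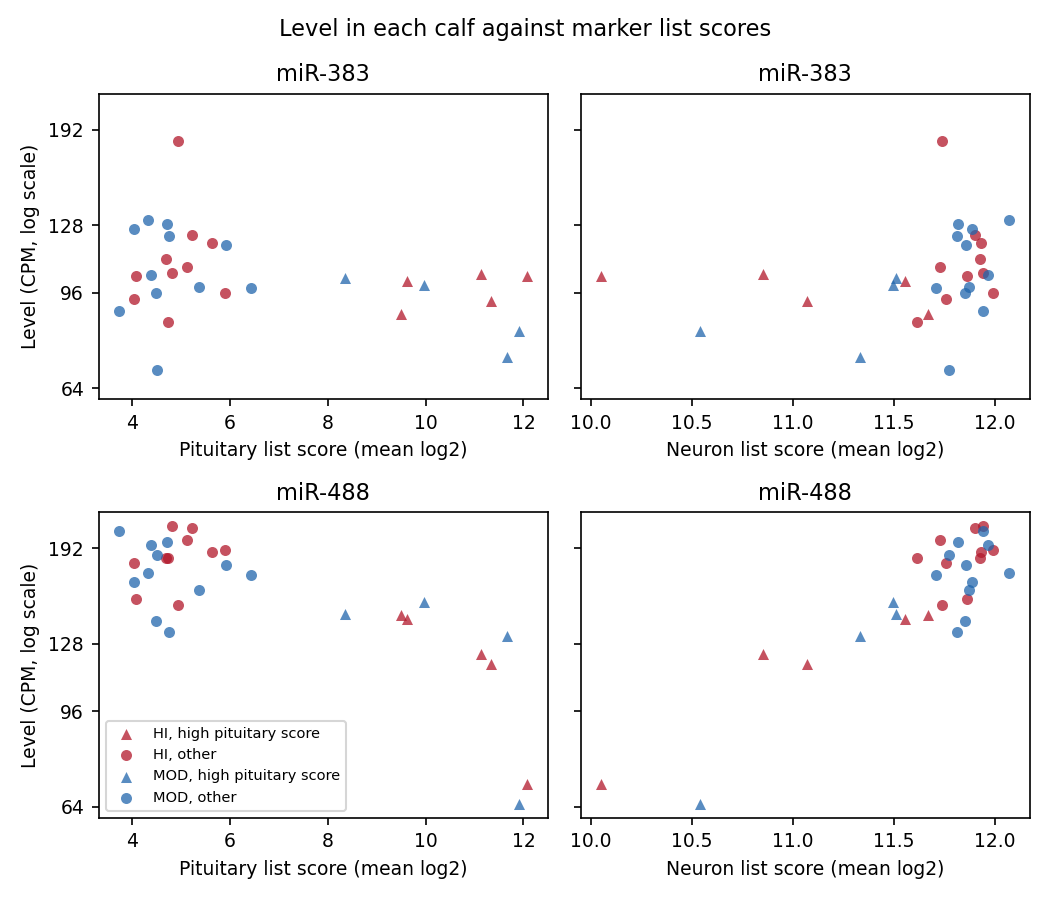
Level of miR-383 (top) and miR-488 (bottom) in CPM on a log2 axis against the pituitary list score (left) and the neuron list score (right), each the mean log2(CPM + 0.25) of its tested miRNAs, 1 point per calf, with triangles for the 9 calves with a high pituitary score. The triangles of miR-488 span 152.8 to 64.8 CPM and tend to lie lower at higher pituitary and lower neuron scores (r = -0.732 and 0.916), and those of miR-383 stay between 73.2 and 103.9 CPM.

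The pituitary list overlapped between the diets. Of its 10 miRNAs, 8 were tested and 0 passed, with 8 of 8 log2 fold changes above 0 and a median of 0.64, against 235 of 476 above 0 and a median of -0.0022 over all tested miRNAs. The SE of these fold changes was 0.21 for miR-7, 0.86 for miR-375 and between 1.12 and 1.29 for the others. Their signs are not 8 separate observations, because the 8 miRNAs were measured in the same calves. The summed level of the list ran from 2325 to 100739 CPM in HI and from 2289 to 84373 CPM in MOD. Its median was 5775 CPM in HI and 5827 CPM in MOD. In some libraries miR-200b (1 library) and miR-96 (2 libraries) were at 0. With the pituitary score as a covariate the HI against MOD difference in log2 was 0.09 for miR-383 (adjusted p = 0.849 from limma) and 0.08 for miR-488 (adjusted p = 0.861 from limma). With the neuron score it was 0.12 for miR-488 (SE 0.07, unadjusted p = 0.0852, adjusted p = 0.645 from limma) and 0.09 for miR-383 (adjusted p = 0.775 from limma). Without the 9 calves it was 0.06 for miR-383 (adjusted p = 0.929 from limma) and 0.10 for miR-488 (adjusted p = 0.805 from limma).

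No relation between the levels of the 2 members passed under the authors' scaling. Over 30 calves Pearson's r of their log2 levels was 0.196 (permutation p = 0.285) and Spearman's rho was 0.259 (permutation p = 0.166), with adjusted p = 0.470 and 0.409 over 10 relations. Without the 2 calves farthest from the median of miR-488, r was 0.093. In the 9 calves with a high pituitary score r was 0.133 (exact permutation p = 0.701), and in the other 21 it was -0.248 (permutation p = 0.281). Within the shallower and the deeper libraries r was 0.281 (permutation p = 0.177) and 0.301 (exact permutation p = 0.420). Within the lowest animal codes and the others r was -0.131 (exact permutation p = 0.789) and 0.268 (permutation p = 0.232). Over these 6 sets rho ran from -0.097 to 0.350 (permutation p from 0.141 to 0.880), and r without the 2 farthest calves from -0.319 to 0.122. With scaling by library size only, r over 30 calves was 0.609 (permutation p = 8.0e-05, 0.00080 after adjustment) and rho was 0.618 (permutation p = 0.00048, 0.0048 after adjustment), and r was 0.540 without the 2 farthest calves, so the relation of the members depends on the scaling.

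The miRNAs most like miR-488 over the calves were miR-433, miR-3956, miR-432, miR-9-5p and miR-124a. Their Pearson's r of log2 levels with miR-488 ran from 0.897 to 0.912 over 30 calves. In RefSeq the first 3 lie between DLK1 and DIO3, an imprinted region whose miRNAs are abundant in brain, as do 59 of the 471 tested miRNAs with a RefSeq match (12.5%). Both miR-9-5p, which acts in neural progenitors and neurons, and miR-124a, a defining miRNA of neurons, belong to the neuron list. The 2 least like it were miR-130a (r = -0.883) and miR-186 (r = -0.874). These values rest in part on the 9 libraries with a high pituitary score. Without them the first 5 ran from 0.523 to 0.662, with miR-433 at rank 17 and miR-124a at rank 18 of the tested miRNAs, and miR-130a and miR-186 stood at -0.569 and -0.488. The highest r was then that of miR-6529a (0.715, against 0.745 over 30 calves), followed by miR-130b (0.666, against 0.190). Library size only gave r from 0.922 to 0.954 for the first 5, and weaker r of -0.714 for miR-130a and -0.487 for miR-186.

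The miRNAs most like miR-383 were others. They were miR-654 (r = 0.727), miR-767 (r = 0.690), miR-1264 (r = 0.684), miR-105a (r = 0.653) and miR-431 (r = 0.638), and miR-488 was 163rd by r with miR-383. In RefSeq miR-654 and miR-431 lie between DLK1 and DIO3. Both miR-767 and miR-105a lie within GABRA3, which encodes a subunit of the GABA-A receptor. The gene after miR-1264 is HTR2C, a serotonin receptor that POMC neurons carry. These r changed little without the 9 libraries, from 0.663 to 0.756, but miR-105a then ranked 6th and miR-767 ranked 9th. Above them came miR-380-3p (0.716, against 0.552 over 30 calves) and miR-210 (0.711, against 0.206). Without calf A37840 the r of the first 5 were between 0.647 and 0.692. In that calf, highest for miR-383, miR-654 and miR-1264 were also the highest of all calves, at 1.36 and 1.37 times their medians, while miR-383 stood at 182.9 CPM against its median of 102.7 CPM. The 2 least like miR-383 were let-7b (r = -0.641) and miR-16a (r = -0.638), but with library size only these r were 0.026 and -0.251, while the first 5 ran from 0.818 to 0.891. All of these are descriptions over calves that share library depth and scaling, chosen from 475 miRNAs each.

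**Figure D4:**
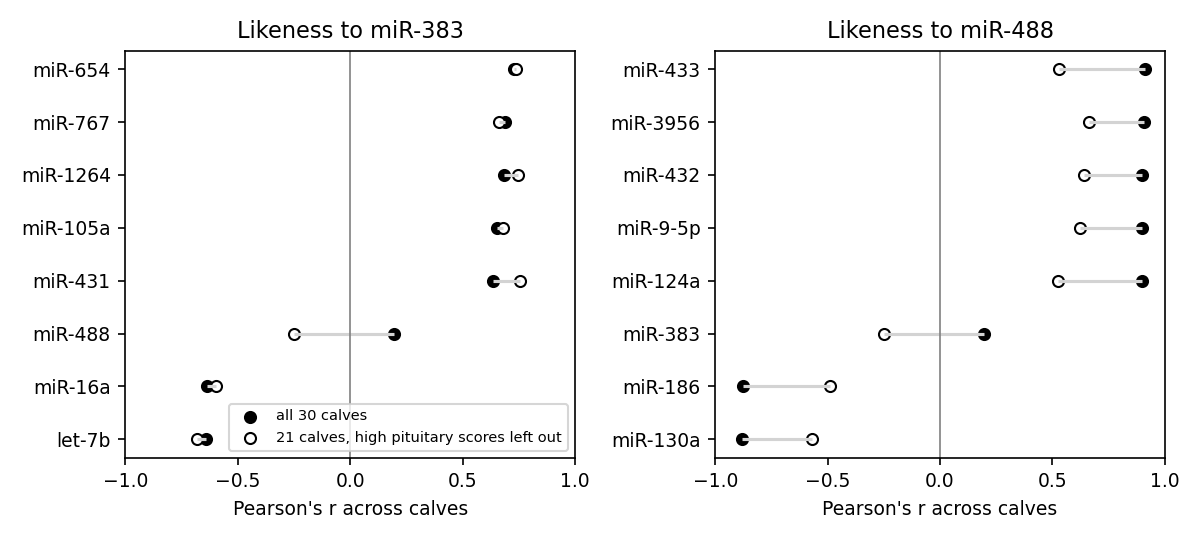
Pearson's r across calves between log2 levels of miR-383 (left) or miR-488 (right) and the 5 miRNAs most like it, the 2 least like it and the other member; filled points use all 30 calves and open points the 21 left without the high pituitary scores. The open points stay near the filled ones for the 5 miRNAs most like miR-383 (0.663 to 0.756), and drop to between 0.523 and 0.662 for those most like miR-488.

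Against the marker lists, under the authors' scaling, the members had r of opposite sign for oligodendrocyte miRNAs. Over 30 calves the 3 tested ones, miR-219-5p, miR-219-3p and miR-338, had r from 0.580 to 0.617 with miR-488 and from -0.209 to -0.189 with miR-383. Without the 9 libraries with a high pituitary score the signs were the same, from 0.410 to 0.567 and from -0.482 to -0.457. For the 8 neuronal miRNAs the median r was 0.804 with miR-488, where 7 were positive and miR-129 was at -0.494, and 0.252 with miR-383, where 8 were positive. Without the 9 libraries these medians dropped to 0.322 and 0.105, with 5 of 8 positive for each member. For the 4 vessel wall miRNAs the median r was -0.453 with miR-383, and -0.348 without the 9 libraries. With miR-488 it was -0.286, but 0.277 without the 9 libraries, where 4 of 4 were positive. Signs also parted for other lists without the 9 libraries. The median r of 3 erythroid miRNAs was then 0.340 with miR-488 (2 of 3 positive) and -0.285 with miR-383 (0 of 3), against -0.185 and -0.373 in 30 calves. For 7 miRNAs of choroid plexus and ependyma it was -0.336 with miR-488 (0 of 7 positive) and 0.025 with miR-383 (4 of 7), against 0.0097 and 0.073 in 30 calves. The 5 leukocyte miRNAs had medians of -0.012 with miR-488 and -0.129 with miR-383, and of 0.025 and 0.015 without the 9 libraries. The 2 tested muscle miRNAs had -0.524 and -0.087, and -0.180 and 0.185 without them. The 8 pituitary miRNAs, which set the 9 libraries apart, had -0.748 and -0.331, with 0 of 8 positive for each member, and 0.090 and 0.133 without them. In 30 calves the median over all 475 other tested miRNAs was 0.037 for miR-488, with 249 positive, and 0.051 for miR-383, with 260 positive. These r are descriptions, and no difference between the members was tested. They were not computed with library size only, a scaling that changed other r of miR-383, so their signs were not checked under it.

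Other miRNAs linked to POMC neurons, leptin or energy balance did not pass either. Of 16 listed, 15 were tested, 0 passed the thresholds, 10 had a log2 fold change above 0 and 5 below it, with a median of 0.02. Over all 476 tested miRNAs 235 were above 0 and 241 below it, with a median of -0.0022. The list shares miR-7, miR-200a, miR-200b and miR-429 with the pituitary list, and miR-9-5p and miR-137 with the neuron list. Median levels of the 15 tested miRNAs ran from 1.33 CPM for miR-429 to 44294 CPM for miR-9-5p. For miR-103 and miR-107, which act on insulin sensitivity, the log2 fold changes were 0.02 (SE 0.06, adjusted p = 0.984 from limma) and 0.02 (SE 0.07, adjusted p = 0.984 from limma). An unadjusted p under 0.05, which 21 of 476 tested miRNAs reached (4.41%), was seen for 2 of the 15, namely miR-33b, which in human lies in the sterol regulator SREBF1, and miR-342, with log2 fold changes of -0.45 (SE 0.17, adjusted p = 0.912 from limma) and -0.27 (SE 0.12, adjusted p = 0.912 from limma). The members of the miR-200 family in the list, which leptin was linked to in mouse hypothalamus, gave 0.89 (SE 1.29) for miR-200a and 0.52 (SE 1.25) for miR-429, and miR-200b failed the filter with a median of 0.799 CPM.

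**Figure D5:**
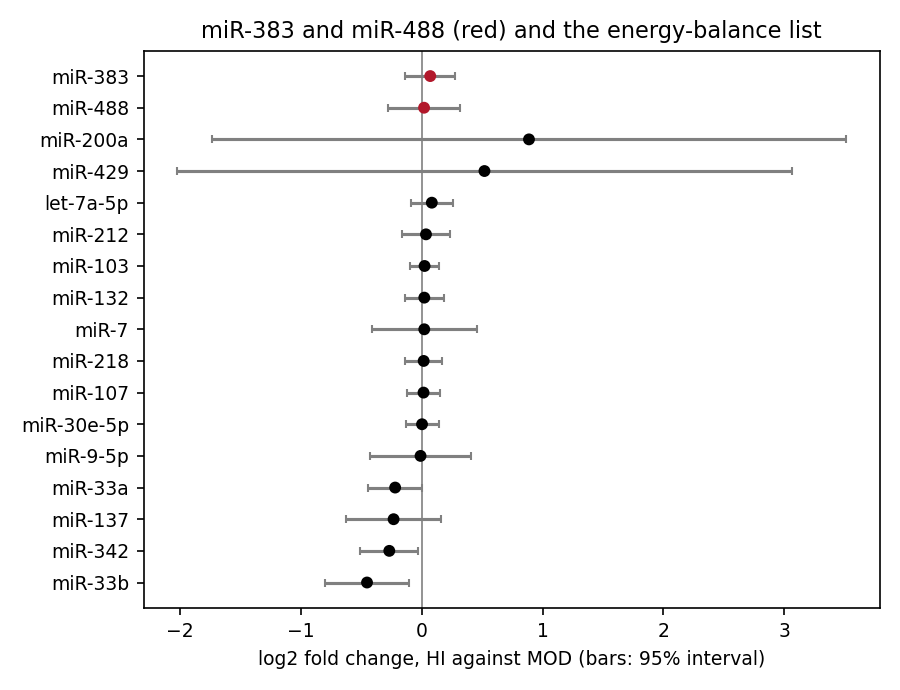
Log2 fold change of HI against MOD with 95% intervals from limma for miR-383 and miR-488 (red) and the 15 tested miRNAs of the energy-balance list (black, n = 15 calves per diet). The members lie at 0.07 and 0.02, none of the miRNAs shown passes the thresholds, and the intervals of miR-200a and miR-429 are the widest.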

How the data were processed

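Small RNA was sequenced from the ARC of 30 calves, 15 HI and 15 MOD, grouped by the treatment label. After Cutadapt trimming, length selection and removal of other short RNAs, the authors used miRDeep2, with Bowtie as its aligner, to quantify known bovine miRNAs (genome ARS-UCD1.2). What the authors deposited as signal are decimals in the form of CPM over scaled library sizes. The normalization is not given in the sources used here. All columns of the table belong to these 30 calves.

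The step between low values of a library gave what 1 read is worth there. Division by it returned reads, of which 94.5% to 97.9% per library were whole within 0.1 of a read, among values below 200 reads. edgeR's filterByExpr on these reads kept 476 miRNAs. The main test was limma (lmFit, eBayes with a trend) on log2(CPM + 0.25), with no covariate. Because the values are not counts, edgeR and DESeq2, on recovered reads, were alternatives. Others were the scaling, filter, pseudocount, terms for depth, animal code and marker scores, and leaving out calves. Single differences and correlations used two-sided permutation tests with 100000 resamples, exact where a group was under 10. The code was tested on simulated data.

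The members, lists and tests were chosen with earlier results of these data known. The miRNAs named are the members, for each the 5 with the highest and the 2 with the lowest r over the calves, and those of the energy-balance and marker lists where a value stands beside a result. Also named are miRNAs whose r became one of the highest without the calves with a high pituitary score. Marker lists were for neurons, oligodendrocytes, pituitary, choroid plexus and ependyma, vessel wall, erythroid cells, leukocytes, muscle and liver. P-values refer to the spread between calves, which also holds library preparation and scaling. The counting coefficients of variation and the floors cover counting error only. A floor of 3 reads lay between 0.138 and 0.558 CPM, far below both members. Software was R 4.3.3, limma 3.58.1, edgeR 4.0.16, DESeq2 1.42.0, Python 3.11.15 and scipy 1.17.1.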

Additional observations from a re-analysis of the deposited data

How the results depend on the processing

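Neither miR-383 nor miR-488 passed the thresholds under any of the 16 alternatives other than leaving out a calf, or in the 30 fits without 1 calf. The log2 fold change of miR-383 ran from -0.010 to 0.16 over the former, and was below 0 only in the shallower libraries (-0.010). That of miR-488 ran from -0.023 to 0.12, and was below 0 only with library size only (-0.023). Without 1 calf, miR-383 ran from 0.015 to 0.099, lowest without HI calf A37840, and miR-488 from -0.070 to 0.10. The latter was below 0 without MOD calf A41971 (-0.070) or HI calves A27848, A47858 or A27864 (-0.0097, -0.0088 and -0.0035), and highest without HI calf A37824 (0.10). The count of all miRNAs past the thresholds was 0 in limma with no covariate, 1 with DESeq2's Wald test (21 with an unadjusted p under 0.05) and 1 with the neuron score as a covariate. Without 1 calf it ran from 0 to 1, with 1 without HI calf A77860 or MOD calf A97854. The miRNA was miR-2419-3p each time. The r of the members was 0.609 with library size only, past p = 0.05, and -0.248 without the 9 calves with a high pituitary score (an alternative chosen after seeing the data), and 0.270 and 0.180 with the means of the depth and animal-code classes removed. The cause was not tested. No paired analysis was possible because each calf belongs to 1 diet and the labels share no replicate number between diets.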

Other observations

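Over the other marker lists no miRNA passed the diet test. Of the tested miRNAs, 0 of 8 neuronal, 0 of 3 oligodendrocyte, 0 of 7 choroid plexus and ependyma, 0 of 4 vessel wall, 0 of 3 erythroid, 0 of 5 leukocyte and 0 of 2 muscle miRNAs passed the thresholds in limma, against 0 of 476 (0%) over all tested miRNAs. At an unadjusted p under 0.05 the count was 1 of the 4 vessel wall miRNAs and 0 in each of the others, against 21 of 476 (4.41%) over all. The liver miRNA miR-122 failed the filter, with a median of 0.207 CPM.

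Calf A47825 of the MOD group had the lowest miR-383 of all calves, at 69.1 CPM on 1225 reads, and a miR-488 of 187.0 CPM on 3314 reads. Its ratio of miR-488 to miR-383 was the highest of the 30 calves, at 2.71, and its pituitary list score of 4.52 was among the low ones. In calf A37824 the ratio was the lowest, at 0.683.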
